A study of Homo sapiens with 6 samples.

Results

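Immediate-early genes are switched on within minutes when a cell receives a growth factor, serum or a stress signal, and most of their products are short-lived. The 10 genes described here belong to 4 small groups: the zinc finger transcription factors EGR1, EGR2 and EGR3, the orphan nuclear receptors NR4A1, NR4A2 and NR4A3, the early-response genes IER2 and IER3, and the Krüppel-like zinc finger factors KLF4 and KLF6. They were chosen by name, and all 10 were found among the 57659 genes counted in each library. In fibroblasts the EGR genes are known as targets of ERK signalling through serum response factor (SRF), which binds CArG boxes in their promoters, and the NR4A genes as targets of cAMP signalling through CREB, whose element is built around TGACG.

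The 6 libraries came from IMR90, a line of primary human fetal lung fibroblasts grown in medium with fetal bovine serum. In 3 libraries the cells expressed a short hairpin RNA (shRNA) against macroH2A1, a histone H2A variant that carries an extra globular macro domain, and in 3 control libraries an shRNA against luciferase, which human cells lack. The series calls the libraries of a group biological replicates, and both groups carried a hairpin. The sources used here do not say how many hairpin sequences targeted macroH2A1 or how long before harvest the cells were fed.

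Depth was 3741087 to 5322851 reads assigned to genes in the knockdown libraries and 3744716 to 6421605 in the control libraries. MACROH2A1 itself had 39.0, 43.7 and 39.9 counts per 1000000 (CPM) in the knockdown libraries, against 92.1, 88.0 and 84.8 CPM in the control libraries, so 46.3% of the control level remained (log2 fold change -1.11, SE 0.08, edgeR adjusted p = 0.000917). Fibroblast markers were abundant in both groups, with a summed level of 14220 to 15010 CPM in the knockdown and 9016 to 10320 CPM in the control. Of the 14 tested, 9 were higher in the knockdown, where 3.90% of all genes tested were called as higher. Among the 9 were DCN, COL3A1, PDGFRA, LUM, TCF21, COL1A2, COL6A2 and COL6A1, while COL1A1, PDGFRB, VIM, THY1 and FAP did not pass. Of the endothelial markers KDR and TEK were higher in the knockdown, while PECAM1 and EMCN had no count in any library and 7 of the 11 had at most 3 counts in every library. In the control KDR was near the limit of detection, at a mean of 0.346 CPM. The epithelial list summed to 7.71 to 12.1 CPM in the knockdown and 28.1 to 30.2 CPM in the control, with KRT18 lower in the knockdown, and the blood cell list to 14.7 to 16.3 CPM in the knockdown and 14.4 to 19.3 CPM in the control. Reads outside annotated genes made up 10.6% to 11.3% of the reads listed in the knockdown libraries and 8.34% to 9.43% in the control libraries, and reads without a unique alignment 64.4% to 66.6% in the knockdown and 67.6% to 68.8% in the control. A read with several alignments may be listed more than once, so these need not be shares of sequenced reads. The part of these markers and shares in the values below was not tested. In RNA from whole cultures a gene expressed by fewer cells and one expressed less per cell cannot be told apart.

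Depletion of macroH2A1 went with higher NR4A1, a call kept in all 16 other settings that were run. EGR1 and EGR3 were also called higher and IER3 lower, but these calls were lost in 9, 10 and 6 of the 16. NR4A2 just missed the threshold (edgeR adjusted p = 0.0512). Of the 10 genes, 9 had enough counts to test, 3 rose, 1 fell and 5 did not pass (Benjamini-Hochberg adjusted p under 0.05 over all genes, edgeR quasi-likelihood test). Among all 13445 genes tested, 8.21% were called, 3.90% as higher and 4.31% as lower. The median log2 fold change was 0.47 over the 9 genes and 0.01 over all genes tested. EGR3 passed the filter on low counts only through the knockdown group, since no control library reached the needed 2.24 CPM, and KLF4 and NR4A3 reached it in all 3 libraries of the knockdown only, so these shares are a description. The CPM values of the 2 groups did not overlap for 6 of the 9 tested genes, 4 higher and 2 lower in the knockdown, where 14.5% and 15.9% of all genes tested had such groups in those directions. Of the 10 genes, 4 had an adjusted p under 0.05 in the authors' deposited table, against 12.0% of its 11638 genes: NR4A1, EGR1 and NR4A2 as higher (5.46% of its genes) and IER3 as lower (6.57%).

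**Figure D1:**
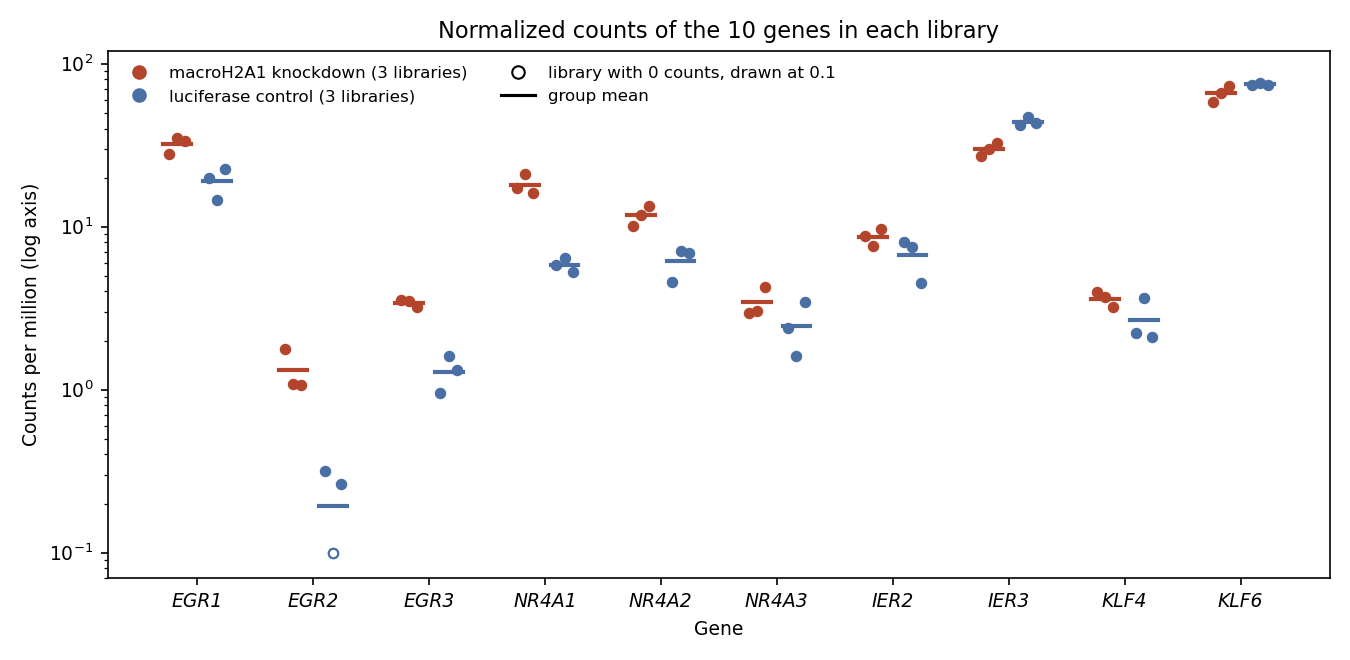
Normalized counts of the 10 genes in CPM (log axis), with 1 point per library and a bar at each group's mean, macroH2A1 knockdown left of luciferase control. The knockdown points lie above the control points for EGR1, EGR2, EGR3, NR4A1 and NR4A2 and below them for IER3 and KLF6, and the open point is the control library with no EGR2 count.

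NR4A1 (ENSG00000123358), also known as Nur77, is an orphan nuclear receptor that binds DNA without a known natural ligand. It had 87, 97 and 60 counts in the knockdown libraries, against 37, 28 and 20 in the control libraries. After scaling these were 17.2, 21.1 and 16.1 CPM in the knockdown and 5.85, 6.40 and 5.29 CPM in the control. Every knockdown library was above every control library. The gene was 3.09-fold higher in the knockdown (18.1 ± 2.63 CPM in the knockdown and 5.85 ± 0.558 CPM in the control, SD, n = 3 each; log2 fold change 1.63, SE 0.17, edgeR adjusted p = 0.00317). It kept its call in all 16 other settings that were run, with log2 fold changes from 1.51 to 1.71. The antisense gene NR4A1AS overlaps its exons over 754 bases in GENCODE 29 and had at most 1 count in any library.

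NR4A2 (ENSG00000153234), also known as Nurr1, had 51, 54 and 50 counts in the knockdown libraries, against 29, 31 and 26 in the control libraries. These were 10.1, 11.7 and 13.4 CPM in the knockdown and 4.59, 7.09 and 6.87 CPM in the control, so the groups did not overlap. The estimate was 1.92-fold (log2 fold change 0.94, SE 0.22), and it missed the threshold (edgeR adjusted p = 0.0512). It passed in 5 of 16 other settings, among them DESeq2 (adjusted p = 0.0306) and edgeR on the genes of the authors' table only (adjusted p = 0.0028). In the authors' deposited table its ratio was 1.91 with an adjusted p of 0.00472.

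NR4A3 (ENSG00000119508), also known as NOR1, was, per length of exon, the least abundant of the NR4A genes in every library. It had 15, 14 and 16 counts in the knockdown libraries, against 15, 7 and 13 in the control libraries. The scaled values were 2.97, 3.04 and 4.29 CPM in the knockdown and 2.37, 1.60 and 3.44 CPM in the control, and the groups overlapped. Its log2 fold change of 0.47 (SE 0.33) did not pass (edgeR adjusted p = 0.439).

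EGR1 (ENSG00000120738) encodes the best studied early growth response factor, which binds GC-rich sites and is held back by the corepressors NAB1 and NAB2. It had 142, 162 and 125 counts in the knockdown libraries, against 126, 64 and 86 in the control libraries. In CPM these were 28.1, 35.2 and 33.5 in the knockdown and 19.9, 14.6 and 22.7 in the control. The groups did not overlap, with control replicate 3 closest to the knockdown libraries and control replicate 2 lowest. EGR1 was 1.69-fold higher in the knockdown (32.3 ± 3.72 CPM in the knockdown and 19.1 ± 4.11 CPM in the control, SD, n = 3 each; log2 fold change 0.76, SE 0.17, edgeR adjusted p = 0.0444). The call was lost whichever of the 6 libraries was left out, with adjusted p from 0.0556 to 0.126 and log2 fold changes from 0.60 to 0.89.

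EGR3 (ENSG00000179388) encodes a related factor and, per length of exon, was below EGR1 in every library. It had 18, 16 and 12 counts in the knockdown libraries, against 6, 7 and 5 in the control libraries. The scaled values were 3.56, 3.48 and 3.21 CPM in the knockdown and 0.949, 1.60 and 1.32 CPM in the control, which did not overlap. The estimate was 2.69-fold (log2 fold change 1.43, SE 0.28, edgeR adjusted p = 0.0278). The replicate SDs of EGR3 were 0.181 CPM in the knockdown and 0.327 CPM in the control, below the 0.877 and 0.508 CPM from counting alone. This SE may therefore be too small, and it was larger with a robust prior (0.39) and with DESeq2 (0.56). EGR3 also lost its call whichever library was left out (adjusted p 0.0695 to 0.121) and with DESeq2 (adjusted p = 0.0854), and the authors' deposited table gave it a ratio of 2.67 and an adjusted p of 0.055.

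EGR2 (ENSG00000122877), which in Schwann cells drives myelin genes, was near the limit of detection and too low to test. It had 9, 5 and 4 counts in the knockdown libraries, against 2, 0 and 1 in the control libraries. Over the groups this made 18 counts in the knockdown and 3 in the control, a ratio of 6.49 after scaling with an exact conditional 95% interval of 1.89 to 34.4, which covers counting error only. The log2 ratio of 2.70 ran from 2.18 without control replicate 2 to 3.46 without control replicate 1. In a fit of all genes with 20 or more summed counts its log2 fold change was 2.54 and did not pass (edgeR adjusted p = 0.087). In the authors' deposited table it had a ratio of 6.84 and an adjusted p of 0.0966.

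Promoter sequences show what EGR1 and EGR2 share. RefSeq windows of 300 bases on GRCh38.p14, from 250 before to 50 after a transcript start, were searched for 7 of the 10 genes, in 10 windows; EGR3, NR4A2 and IER3 were not searched. A CArG box (CC, any 6 of A and T, GG), the SRF site, was present in 1.29% of all 35116 windows of the table. Of the 7 genes searched, EGR1 and EGR2 had one in a window, and they are shown for that reason, with NR4A3 as the gene of the 7 with the most TGACG motifs; capitals mark CArG boxes and TGACG or its reverse complement CGTCA.
EGR1 promoter, chr5:138465229-138465528, plus strand: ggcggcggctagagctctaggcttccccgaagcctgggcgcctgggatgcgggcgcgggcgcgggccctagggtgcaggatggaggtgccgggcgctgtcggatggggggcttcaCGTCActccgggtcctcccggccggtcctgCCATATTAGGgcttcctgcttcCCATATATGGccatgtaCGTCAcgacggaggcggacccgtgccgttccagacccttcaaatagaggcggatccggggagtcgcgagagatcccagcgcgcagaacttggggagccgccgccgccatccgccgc
EGR2 promoter, chr10:62816317-62816616, minus strand: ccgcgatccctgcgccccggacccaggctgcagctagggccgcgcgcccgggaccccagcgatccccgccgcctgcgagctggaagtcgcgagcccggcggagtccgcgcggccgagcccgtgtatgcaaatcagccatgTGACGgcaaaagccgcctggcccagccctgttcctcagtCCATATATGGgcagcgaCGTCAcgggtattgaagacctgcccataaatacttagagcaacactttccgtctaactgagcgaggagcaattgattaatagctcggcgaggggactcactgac
NR4A3 promoter, chr9:99821635-99821934, plus strand: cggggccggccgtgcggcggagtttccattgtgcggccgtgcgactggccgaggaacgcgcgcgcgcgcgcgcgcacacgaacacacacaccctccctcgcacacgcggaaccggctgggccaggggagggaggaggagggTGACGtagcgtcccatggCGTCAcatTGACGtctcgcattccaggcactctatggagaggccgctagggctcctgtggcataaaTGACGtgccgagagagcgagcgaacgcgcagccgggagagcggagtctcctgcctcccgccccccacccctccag

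The EGR1 window held the CArG boxes CCATATTAGG and CCATATATGG, which began 105 and 83 bases before the start. One of the 3 EGR2 windows held CCATATATGG, 71 bases before its start. In both genes CGTCA began 17 bases downstream of the first base of that CCATATATGG. TGACG, searched on both strands, was in 24.6% of all windows and in windows of 5 of the 7 genes: EGR1, EGR2, NR4A3, IER2 and KLF4. NR4A3 had 4 copies within 109 bases of its start, and the full element TGACGTCA, found in 1.85% of all windows, was in none of the 10. Of the EGR sites GCGTGGGCG and GCGGGGGCG, present in 0.795% and 5.07% of windows, KLF6 held GCGGGGGCG once and the others held neither. The pair of NR4A1 windows held none of these letters, which says only that they are not in those windows. The matches describe the windows and were not tested against the fold changes.

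IER3 (ENSG00000137331), which encodes a small protein that acts on ERK signalling and cell survival, was the only one of the 9 tested genes called lower. It had 138, 137 and 122 counts in the knockdown libraries, against 265, 205 and 163 in the control libraries. After scaling these were 27.3, 29.8 and 32.7 CPM in the knockdown and 41.9, 46.9 and 43.1 CPM in the control. All 3 knockdown libraries were below all 3 control libraries. The gene was 1.47-fold lower in the knockdown (29.9 ± 2.70 CPM in the knockdown and 44.0 ± 2.59 CPM in the control, SD, n = 3 each; log2 fold change -0.56, SE 0.09, edgeR adjusted p = 0.0164). The call held without knockdown replicate 3 (adjusted p = 0.0343) and was lost without any other single library, with adjusted p up to 0.0685.

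IER2 (ENSG00000160888), an early-response gene whose product is a nuclear regulator of transcription, had no passing change. It had 44, 35 and 36 counts in the knockdown libraries, against 51, 33 and 17 in the control libraries, which is 8.70, 7.61 and 9.64 CPM in the knockdown and 8.07, 7.55 and 4.49 CPM in the control. The groups overlapped, with control replicate 3 lowest. Its log2 fold change of 0.34 (SE 0.25) did not pass (edgeR adjusted p = 0.456).

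KLF6 (ENSG00000067082), a factor tied to injury responses and matrix genes, had no passing change. It had 294, 304 and 273 counts in the knockdown libraries, against 469, 333 and 280 in the control libraries. The scaled values were 58.1, 66.1 and 73.1 CPM in the knockdown and 74.2, 76.1 and 74.0 CPM in the control. The knockdown libraries were all lower, with knockdown replicate 3 close to the control libraries, and the log2 fold change of -0.19 (SE 0.10) did not pass (edgeR adjusted p = 0.288).

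KLF4 (ENSG00000136826), one of the factors used to reprogram fibroblasts to pluripotency, was low. It had 20, 17 and 12 counts in the knockdown libraries, against 14, 16 and 8 in the control libraries, and 3.96, 3.70 and 3.21 CPM in the knockdown against 2.21, 3.66 and 2.11 CPM in the control. The groups overlapped through control replicate 2, and the log2 fold change of 0.46 (SE 0.29) did not pass (edgeR adjusted p = 0.385).

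**Figure D2:**
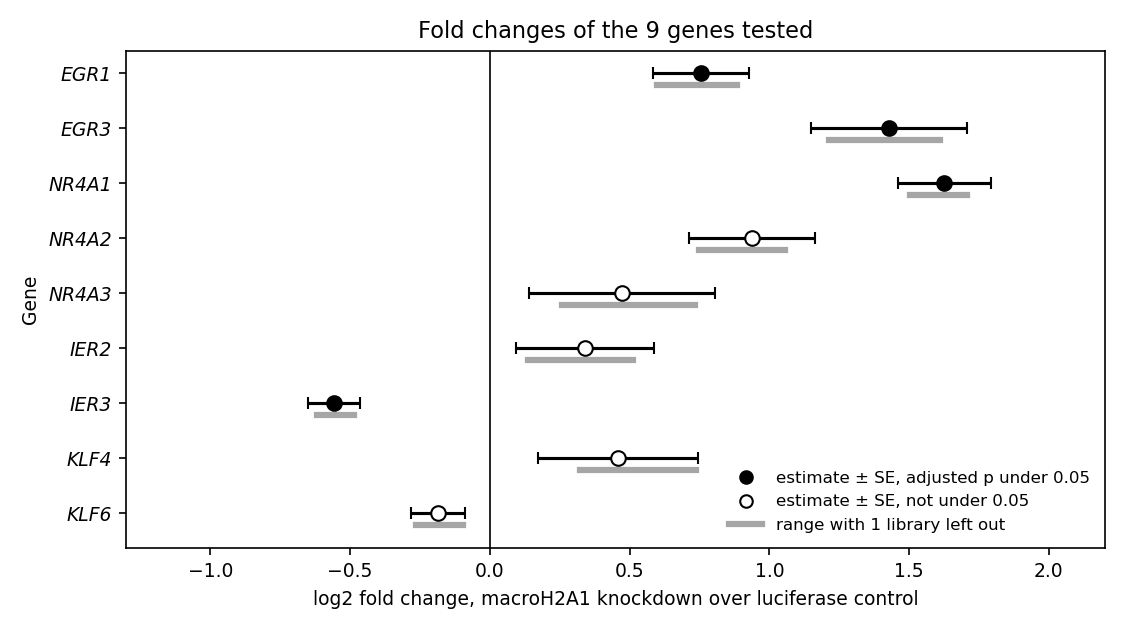
Log2 fold changes of the 9 genes tested, macroH2A1 knockdown over luciferase control, with standard errors; filled points have an adjusted p under 0.05, and grey bars span the estimates with 1 library left out. EGR1, EGR3 and NR4A1 lie to the right and IER3 to the left of 0, and no grey bar crosses 0.

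The spread between replicates was set beside the SD that counting alone would give. For NR4A1 the SD was 2.63 CPM in the knockdown and 0.558 CPM in the control, where counting gives 2.02 and 1.10 CPM. For EGR1 it was 3.72 CPM in the knockdown and 4.11 CPM in the control, against 2.68 and 1.99 CPM from counting. KLF6 had an SD of 7.49 CPM in the knockdown and 1.18 CPM in the control, against 3.82 and 3.94 CPM from counting. For IER2 it was 1.02 CPM in the knockdown and 1.93 CPM in the control, against 1.39 and 1.20 CPM from counting. EGR3 had an SD of 0.181 CPM in the knockdown and 0.327 CPM in the control, below the 0.877 and 0.508 CPM from counting. Each SD rests on 3 libraries, and these SDs were not tested against each other.

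Per length of transcript the order of the genes was similar in both groups. In CPM per kilobase of exon, IER3 was highest at 22.1 ± 1.99 in the knockdown and 32.4 ± 1.91 in the control (SD, n = 3 each). KLF6 followed at 10.7 ± 1.22 in the knockdown and 12.2 ± 0.192 in the control. EGR1 stood at 10.3 ± 1.19 in the knockdown, where its libraries overlapped those of KLF6, and at 6.09 ± 1.31 in the control, where they did not. NR4A2 (2.96), IER2 (2.82) and NR4A1 (2.48) came next in the knockdown with overlapping libraries. In the control IER2 (2.18) and NR4A2 (1.56) overlapped, while NR4A1 (0.802) lay below NR4A2 and overlapped KLF4 (0.728). KLF4 (0.99), EGR3 (0.704), NR4A3 (0.544) and EGR2 (0.356) were lowest in the knockdown, and KLF4 was the one of them whose libraries stood clear of the next gene. In the control NR4A3 (0.391) and EGR3 (0.266) overlapped, and EGR2 (0.0525) was below them. With the longest transcript as length, NR4A1 (3.75) came before NR4A2 (3.38) in the knockdown, and KLF6 lay above EGR1 there without overlap. In the control NR4A1 and NR4A2 then overlapped, so these orders depend on the length used.

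Within the NR4A family, NR4A1 made up 41.6% ± 5.60 of the summed level per length in the knockdown and 29.5% ± 5.13 in the control (SD, n = 3 each). NR4A2 held 49.3% ± 4.00 in the knockdown and 56.2% ± 6.00 in the control. With the longest transcript as length, NR4A1 held 48.5% in the knockdown and 35.7% in the control, and NR4A2 43.7% and 51.6%. Which of them was larger in the knockdown thus depends on the length used. EGR1 held 90.5% ± 2.15 of the EGR total in the knockdown and 94.9% ± 1.29 in the control, so EGR2 and EGR3 remained minor members.

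Ratios between members of a family within a library do not depend on how libraries are scaled. All 6 pairs of tested members were compared by an exact two-sided permutation test, which with 3 libraries against 3 cannot go below p = 0.1. The log2 ratio of IER2 to IER3 was -1.64, -1.95 and -1.75 in the knockdown libraries, against -2.37, -2.62 and -3.22 in the control libraries. These did not overlap, and the difference of 0.96 reached the smallest p the permutation test allows (exact p = 0.1, adjusted over the 6 pairs 0.3). The ratio of NR4A1 to NR4A2 was 0.62 ± 0.31 in the knockdown and -0.06 ± 0.37 in the control on the log2 scale, with overlapping libraries (exact permutation p = 0.2, adjusted 0.3). NR4A1 to NR4A3 differed by 1.11, EGR1 to EGR3 by -0.60, KLF4 to KLF6 by 0.66 and NR4A2 to NR4A3 by 0.43, each with overlapping libraries and an exact permutation p from 0.2 to 0.4. No pair could have passed in a test of this size, so these p-values do not show whether members of a family changed alike. With 1 library left out, the IER2 to IER3 difference ran from 0.71 to 1.14.

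**Figure D3:**
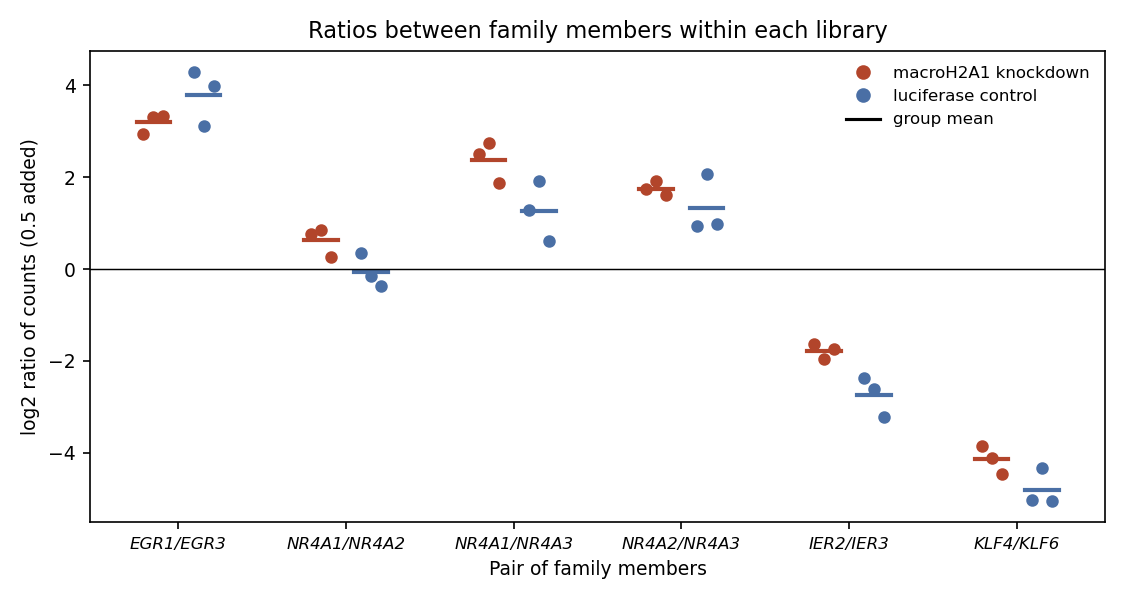
Log2 ratio of the counts of family members within each library (0.5 added to each count), with 1 point per library and a bar at the group mean, macroH2A1 knockdown left of luciferase control. The libraries of the groups lie apart for IER2/IER3 and overlap for the other 5 pairs.

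The replicate deviations of the 9 genes were also compared. After each group's mean was subtracted, Pearson's r between members over the 6 libraries had a median of 0.08 over 36 pairs, from -0.90 for EGR1 and KLF4 to 0.90 for IER3 and KLF6, with 20 pairs positive and 16 negative. Among 9004 other protein-coding genes with at least 5 CPM, those most like NR4A1 by this measure were RIPOR3, ACOT8 and NAV2. For EGR1 they were SVIL, MAPK3 and TTC31, for EGR3 COL27A1, GSK3A and SMU1, and for IER3 MYL6B, PRXL2C and GSTA4. For NR4A2 they were PPP2R5B, MAN2A2 and SPRED2, for NR4A3 ERMP1, PPIE and PPP1R15B, and for IER2 ERH, SMC5 and PPFIBP1. For KLF4 they were LAMTOR1, GEM and ISOC2, and for KLF6 C1orf131, NSMCE1 and RNPS1. The first of the 3 genes had r from 0.99 to 1.00 for each of the 9 members. With only 6 libraries and 9004 candidates, r values this high can arise by chance. The names are a description and do not show shared regulation.

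Other genes of the same pathways moved in both directions. Over 8 lists that hold 144 genes, 18 rose and 7 fell, and the others did not pass or were too low to test. The median log2 fold change of those tested was 0.02. Calls in these lists leaned upward, while of all genes tested 3.90% were called as higher and 4.31% as lower. The lists were chosen with earlier results of these data known, so these counts are a description. Of 6 AP-1 genes tested, FOS rose and FOSL1 and JUN fell, with log2 fold changes of 1.43, -0.75 and -0.41 (edgeR adjusted p at most 0.0323). FOS had 19.8 ± 1.60 CPM in the knockdown and 7.27 ± 1.28 CPM in the control (SD, n = 3 each). Of 36 other immediate-early genes, 8 rose (EREG, SGK1, SIK1, GEM, CCN2, PHLDA1, ZFP36L2 and PLK2) and 2 fell, F3 and LIF. LIF was on the list, but the choice to name it here was made after its value was seen. EREG, an EGF receptor ligand, SGK1, a kinase, and SIK1, a kinase induced by cAMP, had log2 fold changes of 1.60, 1.26 and 1.18. Of 26 upstream factors and kinases, CRTC3, a CREB coactivator, and RPS6KA2, an ERK-activated kinase, rose (log2 fold changes 0.87 and 0.59). HDAC9, a partner of MEF2 factors, had 0.489 ± 0.542 CPM in the knockdown and 7.90 ± 2.73 CPM in the control and fell (edgeR adjusted p = 0.0137). Its knockdown mean lay under the 2.24 CPM that the filter on low counts needs and near the limit of detection. SRF itself was not called. Of 13 partners and reported targets of EGR1, ID3 and TIMP3 rose and F3 fell, with log2 fold changes of 1.16, 0.44 and -0.38. Of 9 NR4A partners, RXRA, a receptor that pairs with NR4A1 and NR4A2, and NLK rose (0.61 and 0.46), of 9 other KLF genes KLF9 rose (0.88), of 16 cytoskeletal SRF targets FHL2 rose (0.40), and of 10 ERK feedback genes SPRY1 rose while ETV5 and EPHA2 fell (1.63, -0.55 and -0.59). FOS, SGK1, ID3, KLF9, SPRY1 and ETV5 kept their calls in all 16 other settings; the other 19 lost theirs in 1 to 12 of 16.

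**Figure D4:**
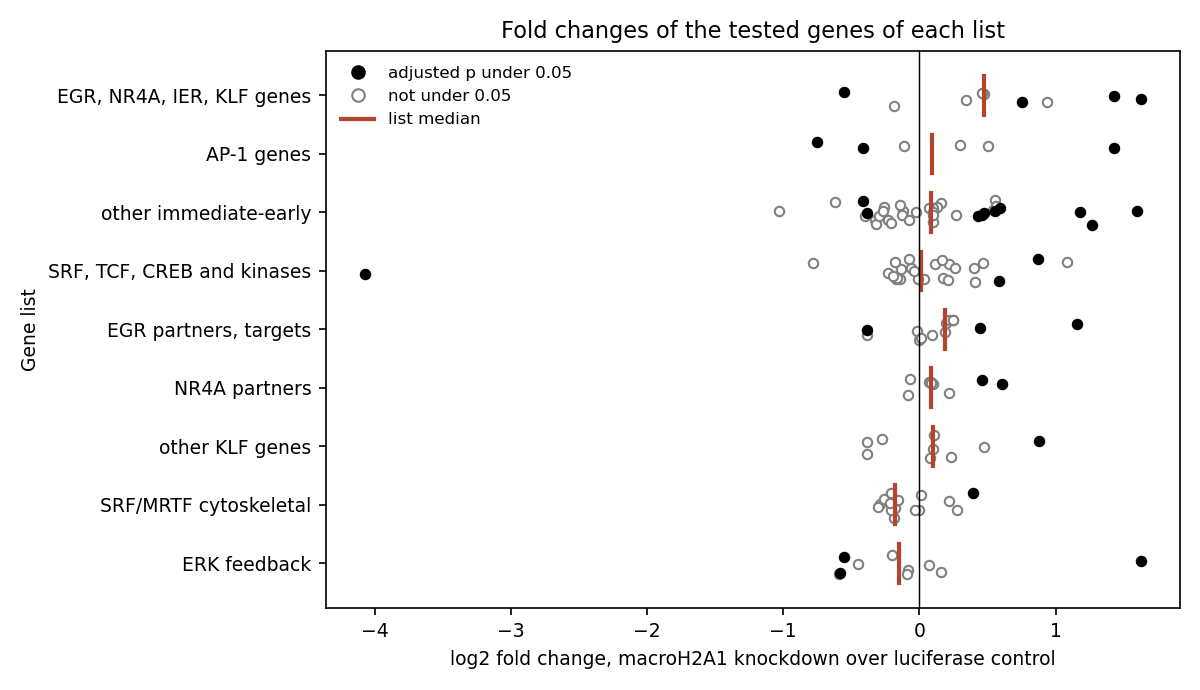
Log2 fold changes of the tested genes of the 9 gene lists, macroH2A1 knockdown over luciferase control; filled points have an adjusted p under 0.05, and the bar marks the list's median. The medians of the other 8 lists lie between -0.18 and 0.18, and that of the EGR, NR4A, IER and KLF genes is 0.47. The genes behind that 0.47 include EGR3, which passed the filter on low counts only through the knockdown group. All lists were chosen with earlier results of these data known.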

How the data were processed

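RNA was depleted of ribosomal RNA and all libraries shared a single sequencing lane, per the labels' protocols. For each library the authors deposited unnormalized counts of reads by Ensembl gene, made with CASAVA 1.7, GSNAP and HTSeq on hg19 per the submitters' processing notes. Neither annotation nor strand setting is given in the sources used here, so reads over antisense partners are uncertain. The authors also deposited a DESeq 1.10.1 table, which per the file headers holds mean signal (counts over size factors), the ratio of means, its log2, and p-values before and after adjustment. Its log2 ratios lay within 0.039 of log2 ratios of group means of counts over DESeq2 size factors, knockdown over control, which are not the edgeR fold changes.

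The 5 lines that name no gene (86.3% to 88.1% of reads listed, where a read with several alignments may be listed more than once) were left out. Counts were filtered with filterByExpr (minimum count 10), scaled with TMM and tested with edgeR 4.0.16 in R 4.3.3 (glmQLFit and glmQLFTest, group only), with limma 3.58.1 and DESeq2 1.42.0 as alternatives. CPM uses TMM-scaled library sizes, and an SE is the log2 fold change over the square root of F. Steps were tested on simulated counts. The edgeR p-values set the difference between groups against the spread between these libraries, estimated with information from all genes tested. Summed over genes, replicates differed by more than sampling noise (chi-square per degree of freedom 25.2 to 37.7), which need not hold for a single gene. In each library 3 counts equal 0.467 to 0.802 CPM. Exon lengths came from GENCODE 29, another build than hg19, and promoters from RefSeq. Protein sequences were not analysed here.

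The 10 genes and all lists were chosen with earlier results of these data known. All 10 are named. Of each list, called genes are named, or where over 8 the 8 with the largest change. F3 and LIF were named beside the 8 other immediate-early genes. The genes most like a member are the 3 with the highest r. Of 205 list entries, 1 had no match.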

Additional observations from a re-analysis of the deposited data

How the results depend on the processing

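The 9 tested genes and MACROH2A1 kept their direction in all 16 other settings, and NR4A1 and MACROH2A1 also kept their calls. EGR1 was lost with total counts only (log2 fold change 0.75, adjusted p = 0.0607), with at least 20 counts in total (0.75, adjusted p = 0.056) and with the replicate block (0.76, adjusted p = 0.0989). EGR3 was lost with DESeq2 (1.44), with no filter beyond 1 count (1.42), with at least 20 counts in total (1.41) and with the block (1.43), and IER3 with the block (-0.56, adjusted p = 0.0518). NR4A2 passed with DESeq2 (0.94), limma-voom (0.97), no filter beyond 1 count (0.93), the genes of the authors' table only (0.97) and a robust prior (0.94). The cause of these changes was not tested.

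With 1 library left out, log2 fold changes ran from 0.60 to 0.89 for EGR1, 1.21 to 1.61 for EGR3 and -0.62 to -0.48 for IER3. In these fits, which have fewer samples, 1 of the 10 genes was called higher (NR4A1) whichever library was missing and 0 to 1 lower, against 3 and 1 with all libraries. All genes called higher then numbered 225 to 303 and lower 198 to 262, and genes of the 8 lists 5 to 9 higher and 2 to 4 lower.

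The higher and lower calls among the 10 genes were 1 and 0 with the block and at an adjusted p under 0.01, and 1 higher with at least 20 counts in total. Over all genes, 1020 and 1022 were called on the genes of the authors' table only, 230 and 186 with the block, 173 and 144 at 0.01 and 908 and 973 at 0.1. In the 8 lists, 28 and 16 were called on the genes of the authors' table only, 6 and 1 with the block and 5 and 2 at 0.01, and 15 were lower with the robust prior and 12 at 0.1. The labels do not say whether a replicate number marks a shared culture or day. Deviations of same-numbered libraries from their group means correlated at -0.01, -0.01 and -0.18, and no library correlated best with its own number. So few libraries cannot settle whether the groups were paired. Counts per list were within 1.5 times the reported ones in 171 of 288 cases. The low counts of EGR2, EGR3, NR4A3 and KLF4 limit what this depth can show.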
